A study of Mus musculus with 12 samples.

Results

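Chaperones are the proteins that help other proteins fold, and the 71 chaperone genes described here are the members of 9 classes that were expressed in the cortex of Mir137 knockout, heterozygous and wild-type mice. Mir137 encodes miR-137, a microRNA abundant in brain. The chaperone genes were taken by name from the 23951 rows of the authors' 3 pairwise tables: the genes of the HSP70, HSP110, HSP90, DNAJA, DNAJB, DNAJC and small heat shock protein families, the mitochondrial chaperonin pair and the CCT ring. Of 81 such rows, 71 reached 1 RPKM (a read density scaled to transcript length and sequencing depth) in at least 1 genotype, among 13824 rows that did so in all. Cortex came from C57BL/6 mice of 3 genotypes, given in the labels as miR-137 KO (KO), miR-137/+ (Het) and wildtype (WT), with 4 libraries each and 12 in all. The labels give neither age nor sex, nor how the allele was made, nor whether the deletion is limited to certain cells. The series title names neurodevelopment and Pde10a as its subject.

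Each genotype has 1 pooled RPKM per table, so no SD stands beside a level, and library depth is unknown. KO and WT levels are from the table of KO against WT, and Het levels from the table of Het against WT. Between tables the level of a chaperone gene in the same genotype moved by at most 0.617% in KO, 0.690% in Het and 0.118% in WT. A gene is said to have risen or fallen where the authors' own adjusted p was below 0.05, and to have changed where it did either. The labels do not tie the 4 libraries per genotype to separate animals. The p-values therefore measure spread between libraries, which may be technical. Each log2 fold is the difference between 2 values of log2(RPKM + 1), a scale that understates the change of low genes. Both mutants were compared with the same WT libraries, so their differences from WT are not independent of each other.

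HSP70 proteins bind exposed hydrophobic stretches of a client in a cycle driven by ATP. J-domain proteins (the DNAJA, DNAJB and DNAJC families) bring the clients and start the ATP hydrolysis, and exchange factors such as HSP110 release the client again. HSP90 acts later on kinases and nuclear receptors, the CCT ring folds actin and tubulin, and small heat shock proteins hold unfolded proteins without ATP. Neurons carry much constitutive HSP70 and HSP90, and use auxilin-type and cysteine-string J proteins to recycle synaptic vesicles. In a stressed cell, heat shock factor 1 switches on inducible members through heat shock elements in their promoters, and the unfolded protein response of the endoplasmic reticulum (ER) does the same for the ER members.

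The tissue of the 3 genotypes differed in more than the targeted gene. Summed over 7 striatal projection neuron markers, the level was 402 RPKM in KO, 387 RPKM in Het and 52.8 RPKM in WT, and all 7 rose in both mutants in the authors' deposited tables. Over 7 choroid plexus markers it was 87.7 RPKM in KO, 290 RPKM in Het and 2070 RPKM in WT, with 6 lower in each mutant. The 7 cortical excitatory neuron markers summed to 612 RPKM in KO, 727 RPKM in Het and 801 RPKM in WT, so the labelled tissue carried its defining markers in every genotype. Of these 7, 1 rose and 1 fell in KO, and 2 rose and 1 fell in Het. Slc17a7, a glutamate transporter and the most abundant of them, set the order of the sum: the other 6 summed to 218 RPKM in KO, 244 RPKM in Het and 226 RPKM in WT. Glucocorticoid-responsive genes summed to 344 RPKM in KO, 290 RPKM in Het and 487 RPKM in WT, with 6 of 7 lower in each mutant. In bulk tissue, fewer cells of a type and less RNA per cell cannot be told apart. The part of these differences in the chaperone results was not tested. The Mir137 row itself was not used, since its precursor is too short for these libraries to check the genotypes.

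In KO cortex most chaperone genes stood close to their WT level, while 11 of 71 changed. Hspa12b and Hspe1 rose, and Dnajc3, Dnajc6, Dnajc12, Dnajc16, Dnajc27, Hspa1b, Hspa2, Hspb1 and Hspb8 fell. The 2 that rose are 2.82% of the members, beside 6.85% of all 13611 tested genes of at least 1 RPKM. The 9 that fell are 12.7%, beside 7.67% of all genes. The median log2 fold of the members was 0.01, and that of all genes also 0.01. Against WT the Het median was 0.03 for the members and 0.01 for all genes. In Het cortex only 1 member rose, Hspe1, which is 1.41% beside 4.0% of 13634 tested genes. No member fell in Het by the authors' test, beside 5.1% of all genes. At an unadjusted p below 0.05, 4 members were higher and 6 lower in Het. Between KO and Het, Hspa2 fell in KO, which is 1.41% of the members beside 0.98% of 13567 genes. By the authors' test none rose there, beside 0.929% of genes. At an unadjusted p below 0.05, 0 members were higher and 5 lower in KO than in Het. Shares of all genes at an unadjusted p below 0.05 were not counted.

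**Figure D1:**
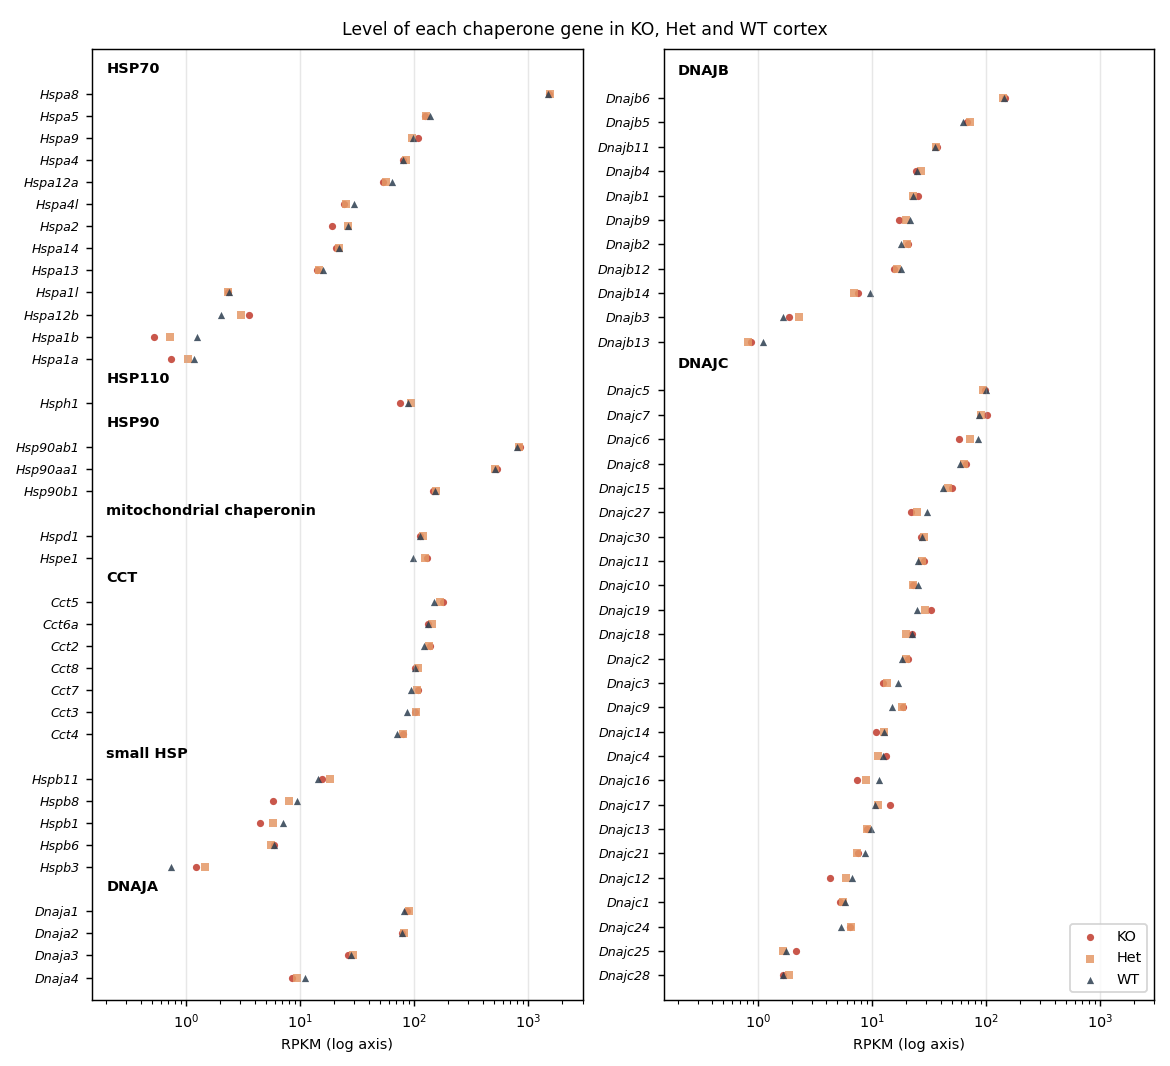
Level in RPKM (log axis) of each of the 71 chaperone genes in KO (circles), Het (squares) and WT cortex (triangles), grouped by class and ordered by WT level. Hspa8 lies highest at about the same level in all 3 genotypes, and for most genes the 3 points lie close together.

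As a whole, chaperone messages took 1.25% of the summed RPKM in KO, 1.27% in Het and 1.26% in WT. Hspa8, the constitutive cytosolic HSP70 that strips clathrin from vesicles and folds new proteins, stood at 1526 RPKM in KO, 1557 RPKM in Het and 1502 RPKM in WT. It ranked 13 among all genes in KO, 9 in Het and 12 in WT. The 3 values lie within a few percent of each other, and KO against WT had an adjusted p of 0.963 in the authors' deposited table. Next came the cytosolic HSP90 pair. Hsp90ab1, the constitutive form, had 851 RPKM in KO, 832 RPKM in Het and 799 RPKM in WT. Hsp90aa1, the more inducible form, had 532 RPKM in KO, 513 RPKM in Het and 510 RPKM in WT. Neither passed the test, at adjusted p 0.781 and 0.851 in KO in the authors' deposited table. Processed copies of such abundant genes are known, and reads shared with them cannot be told apart in these tables.

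At the other end, 4 members were under 1 RPKM in at least 1 genotype and entered through the genotype where they were higher. Dnajb13, a protein of motile cilia and sperm tails, had 0.871 RPKM in KO, 0.821 RPKM in Het and 1.12 RPKM in WT. Markers of ependymal cells, which bear motile cilia, summed to 19.1 RPKM in KO, 19.2 RPKM in Het and 26.7 RPKM in WT, and 2 of 5 measured fell in each mutant. Their part in the Dnajb13 levels was not tested. Hspb3, a small heat shock protein of muscle, had 1.23 RPKM in KO, 1.47 RPKM in Het and 0.733 RPKM in WT. The other two are the inducible HSP70 copies described next. Lowest inside the minimum of 1 RPKM were Dnajb13, Hspa1a and Hspa1b, whose highest levels were 1.12, 1.17 and 1.25 RPKM. Just outside it were Hspb2, Hspb9 and Dnajb7, whose highest levels were 0.957, 0.187 and 0.122 RPKM. In all, 10 family rows stayed under the minimum, and all 71 members were tested by the authors in each comparison.

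The HSP70 class had 13 members, of which 1 rose and 2 fell in KO. These are 7.69% and 15.4% of the class, beside 6.85% and 7.67% of all genes. The median log2 fold of the 13 was -0.14 in KO and -0.03 in Het. Hspa1b, a stress-inducible HSP70, had 0.529 RPKM in KO, 0.720 RPKM in Het and 1.25 RPKM in WT. In KO it fell by 2.35-fold (adjusted p 0.00323 in the authors' deposited table) and had an adjusted p of 0.131 in Het. Its near-identical copy Hspa1a had 0.734 RPKM in KO, 1.03 RPKM in Het and 1.17 RPKM in WT, with an adjusted p of 0.0960 in KO. Both copies were lowest in KO and highest in WT, and Hspa1b reached the minimum of 1 RPKM in WT alone. Reads that fit either copy could have been split between them, so the single values are uncertain. Summed over both copies, the level was 1.26 RPKM in KO, 1.75 RPKM in Het and 2.42 RPKM in WT, which is 1.92-fold lower in KO than in WT. Without the 2 copies, 8 members fell in KO.

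The promoters of the copies are shown because both carry the heat shock element, searched here as GAANNTTC or TTCNNGAA, letters that read the same on both strands. In the RefSeq windows of GRCm38.p6, from 250 bases before to 50 after the start, the Hspa1b and Hspa1a sequences differ at 4 of 300 bases. Each window holds 1 element, set in capitals in the Hspa1b window, chr17:34959189-34959488 on the minus strand.
Hspa1b: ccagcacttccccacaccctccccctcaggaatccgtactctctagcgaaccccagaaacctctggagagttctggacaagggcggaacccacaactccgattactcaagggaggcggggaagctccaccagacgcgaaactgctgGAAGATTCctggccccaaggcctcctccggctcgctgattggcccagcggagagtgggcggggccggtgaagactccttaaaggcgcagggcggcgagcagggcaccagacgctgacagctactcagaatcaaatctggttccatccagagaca

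Hspa2, an HSP70 known for its role in sperm development that is also present in brain, had 19.2 RPKM in KO, 26.1 RPKM in Het and 26.3 RPKM in WT. Its level fell in KO by 1.37-fold against WT (adjusted p 0.00386 in the authors' deposited table). In the table of KO against Het it was 19.3 RPKM in KO and 26.3 RPKM in Het, an adjusted p of 0.0412. Het stood level with WT (adjusted p 0.983), and Hspa2 was the one member that separated KO from Het. Myelin markers also separated those 2 genotypes. Summed over 6 myelinating oligodendrocyte markers, the level was 872 RPKM in KO, 1512 RPKM in Het and 1098 RPKM in WT, and 5 of the 6 fell in KO against Het. Their part in the Hspa2 result was not tested.

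Hspa12b, a distant HSP70 relative known from endothelial cells, had 3.57 RPKM in KO, 3.01 RPKM in Het and 2.01 RPKM in WT. It rose in KO by 1.77-fold (adjusted p 0.00323 in the authors' deposited table), and had an adjusted p of 0.0775 in Het. Both mutants lay above WT. Markers of the vessel wall stood as follows. The 6 endothelial markers summed to 71.3 RPKM in KO, 62.1 RPKM in Het and 55.7 RPKM in WT, of which Cldn5 rose and Ocln fell in KO. Cldn5, a tight junction protein, had 48.2 RPKM in KO, 39.5 RPKM in Het and 32.4 RPKM in WT. Without it the other 5 summed to 23.1 RPKM in KO, 22.6 RPKM in Het and 23.3 RPKM in WT, so the order of the sum was that of Cldn5 alone. The 5 measured smooth muscle and pericyte markers summed to 51.7 RPKM in KO, 57.4 RPKM in Het and 43.8 RPKM in WT, and 2 rose in KO. Without Rgs5, their most abundant, the other 4 summed to 19.3 RPKM in KO, 16.9 RPKM in Het and 15.2 RPKM in WT. That is also the order of Hspa12b, but the sum of all 5, with Rgs5, was highest in Het. Of the 4, Tagln, Pdgfrb and Kcnj8 had the order of Hspa12b and Acta2 did not. The part of the vessel wall markers in the Hspa12b result was not tested.

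Of the remaining HSP70 genes none passed the test in any table. Hspa5, the BiP chaperone of the ER, had 126 RPKM in KO, 128 RPKM in Het and 138 RPKM in WT. Hspa9, the mitochondrial HSP70 that pulls proteins into the matrix, had 109 RPKM in KO, 96.7 RPKM in Het and 97.0 RPKM in WT. Hsph1, the HSP110 exchange factor of cytosolic HSP70, had 75.8 RPKM in KO, 93.2 RPKM in Het and 87.8 RPKM in WT. Its level was lowest in KO, but the adjusted p was 0.244 against WT and 0.347 against Het in the authors' deposited tables. The ER member of the HSP90 class, Hsp90b1, had 146 RPKM in KO, 156 RPKM in Het and 152 RPKM in WT. None of the 3 HSP90 genes passed the authors' test in any table or had an unadjusted p below 0.05 (0 of 3), and their log2 folds lay between -0.06 and 0.09 in KO.

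**Figure D2:**
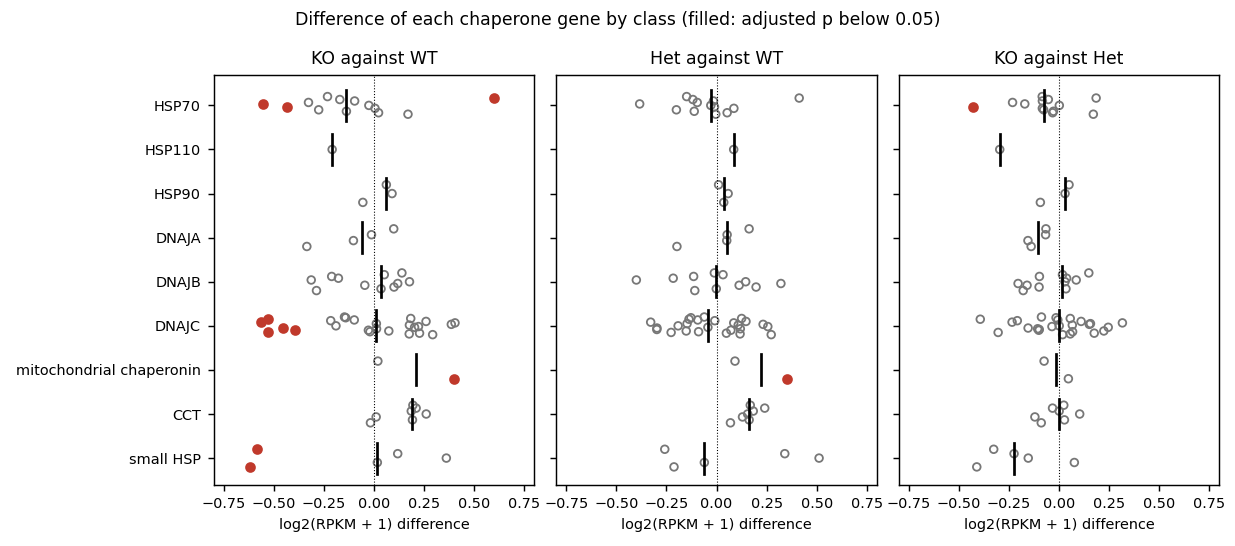
Differences of log2(RPKM + 1) for the 71 members by class (vertical axis) in the 3 comparisons, each as the first named genotype minus the second. Filled points passed the authors' test at an adjusted p below 0.05, open points did not, and black bars are class medians. The filled points on the left of KO against WT are members of the HSP70, DNAJC and small heat shock protein classes.

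The J-domain genes, 40 of the 71 members, gave 5 of the 9 that fell. That is 12.5% of them, close to the 12.7% of all members, beside 7.67% of all genes. All 5 belong to the DNAJC family, whose members share only the J domain. None of the 40 rose in KO by the authors' test, and 1 was higher at an unadjusted p below 0.05. Among the 25 DNAJC genes the median log2 fold in KO was 0.01, with values between -0.56 and 0.40. None of the 4 DNAJA and 11 DNAJB genes passed the test in any table. In KO, 0 DNAJA genes were higher and 1 was lower at an unadjusted p below 0.05, and 0 DNAJB genes were higher and 2 were lower.

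Dnajc6, the neuronal auxilin that recruits Hspa8 to clathrin-coated vesicles, had 58.3 RPKM in KO, 72.2 RPKM in Het and 84.7 RPKM in WT. The gene fell in KO by 1.45-fold (adjusted p 0.000987 in the authors' deposited table). That is the smallest value in the table, and many genes share it, Hspb8 among them. Het lay between KO and WT, with an adjusted p of 0.254 against WT and 0.373 for KO against Het. Dnajc5, the cysteine string protein of synaptic vesicles, had 98.1 RPKM in KO, 93.4 RPKM in Het and 99.5 RPKM in WT. It was the most abundant DNAJC gene in WT and did not pass the test (adjusted p 0.950 in KO). Dnajc7, which passes clients between HSP70 and HSP90, had 103 RPKM in KO, 90.5 RPKM in Het and 87.5 RPKM in WT (adjusted p 0.204 in KO in the authors' deposited table). Neither Hspa8, which Dnajc6 recruits, nor Dnajc5 passed the test in any table. Whether Dnajc6 differed from them in its change was not tested.

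Dnajc27, a Rab-like small GTPase fused to a J domain, had 22.2 RPKM in KO, 24.8 RPKM in Het and 30.7 RPKM in WT. It fell in KO by 1.38-fold (adjusted p 0.00386 in the authors' deposited table), and had an adjusted p of 0.0605 in Het. Dnajc12, a J protein that binds the aromatic amino acid hydroxylases, had 4.31 RPKM in KO, 5.97 RPKM in Het and 6.67 RPKM in WT. In KO it fell by 1.55-fold (adjusted p 0.0315 in the authors' deposited table), and had an adjusted p of 0.806 in Het. For both genes KO was lowest, Het in between and WT highest. Dnajc27 also held 1 heat shock element, in capitals in this stretch of its promoter, chr12:4082335-4082394 on the plus strand.
Dnajc27: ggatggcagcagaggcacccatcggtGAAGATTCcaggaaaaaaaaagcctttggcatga

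The ER members of the HSP70, HSP90 and J-domain families lay mostly below WT, and 2 of the 13 fell in KO. That is 15.4% of them, beside 7.67% of all genes. Dnajc3, which works with Hspa5 in the ER lumen and restrains the kinase PERK, had 12.6 RPKM in KO, 13.6 RPKM in Het and 16.9 RPKM in WT. Its level fell in KO by 1.34-fold (adjusted p 0.00880 in the authors' deposited table), and had an adjusted p of 0.0710 in Het. Dnajc16, a J protein of the ER membrane, had 7.47 RPKM in KO, 8.95 RPKM in Het and 11.5 RPKM in WT. The gene fell in KO by 1.54-fold (adjusted p 0.00179 in the authors' deposited table), and had an adjusted p of 0.0590 in Het. For both genes Het lay between KO and WT. Among the 13 members placed in the ER, 11 had a log2 fold below 0 in each mutant, with a median of -0.17 in KO and -0.11 in Het. Among all genes of at least 1 RPKM, 51.0% lay above 0 in KO and 51.9% in Het. The ER members summed to 446 RPKM in KO, 463 RPKM in Het and 487 RPKM in WT. The grouping by compartment was made after the values were seen, so it describes the genes and tests nothing.

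Another motif stood in part of this group. The ER stress element, CCAAT and CCACG with 9 bases between them, was searched on both strands and stood in the windows of Hspa5, Hsp90b1 and Dnajc3. That is 5.08% of the 59 members with a RefSeq promoter, beside 0.149% of 10725 genes of at least 1 RPKM. The 10725 genes include the members, and these 3 are among the 16 that held the element. No test of the share was made. The element is shown for the 1 of these 3 genes that changed, at chr14:118937806-118937865 on the plus strand, GRCm38.p6.
Dnajc3: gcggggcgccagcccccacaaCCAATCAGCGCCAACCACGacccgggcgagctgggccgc

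Of 19 other genes of ER folding and the unfolded protein response, 0 rose and 1 fell in KO by the authors' test, and none passed it in Het. The 1 that fell is 5.26% of the list, below the 7.67% of all genes. At an unadjusted p below 0.05, 0 were higher and 4 lower in KO, and 0 were higher and 2 lower in Het. The gene that fell was Herpud1, an ER membrane protein of the degradation pathway, with 21.9 RPKM in KO, 22.1 RPKM in Het and 28.2 RPKM in WT (adjusted p 0.0427 in KO in the authors' deposited table). The list's median log2 fold was -0.08 in KO and 0.02 in Het. The summed level of the list was 913 RPKM in KO, 914 RPKM in Het and 882 RPKM in WT.

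Of the mitochondrial chaperonin pair, 1 gene rose in both mutants. Hspe1, the lid (HSP10) that closes the folding chamber, had 129.5 RPKM in KO, 125.1 RPKM in Het and 97.9 RPKM in WT. It rose by 1.32-fold in KO (adjusted p 0.0130) and by 1.28-fold in Het (adjusted p 0.0428), each in the authors' deposited table against the same WT libraries. Hspd1, the chamber itself (HSP60), had 113 RPKM in KO, 119 RPKM in Het and 112 RPKM in WT. It did not pass the test, at adjusted p 0.952 in KO and 0.767 in Het. The lid message thus stood above the chamber message in KO and Het and below it in WT, per transcript length. Whether the lid changed more than the chamber was not tested.

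These genes lie head to head. RefSeq gives 1 window for Hspe1 and 2 for Hspd1, of which 1 shares 285 bases with that of Hspe1. The Hspe1 window, chr1:55087898-55088197 on the plus strand of GRCm38.p6, holds 3 overlapping heat shock elements, in capitals, which the overlapping Hspd1 window, chr1:55087883-55088182 on the minus strand, holds too. The other Hspd1 window, chr1:55088194-55088493 on the minus strand, holds 0.
Hspe1: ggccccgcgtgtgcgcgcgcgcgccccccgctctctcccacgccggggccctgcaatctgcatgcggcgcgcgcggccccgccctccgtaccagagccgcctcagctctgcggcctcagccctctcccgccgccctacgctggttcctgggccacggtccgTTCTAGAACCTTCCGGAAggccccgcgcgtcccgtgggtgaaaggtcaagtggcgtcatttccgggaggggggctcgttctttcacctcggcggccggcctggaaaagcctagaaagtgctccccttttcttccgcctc

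Transcript length moved with the result on Hspe1. In KO against WT the median log2 fold of all genes went down with GENCODE transcript length, over 10 bins of about equal size, being 0.19 in the bin of shortest transcripts (median 1008 nt) and -0.09 in the bin of longest (median 8365 nt). In Het against WT these medians were 0.15 and -0.10. Hspe1, at 774 nt, belongs to the shortest bin. Its log2 fold of 0.40 in KO and 0.35 in Het was 0.21 and 0.20 above the median of that bin. The part of length in the rise of Hspe1 was not tested. Among the members that fell, Hspb1 at 930 nt and Hspb8 at 1816 nt are short, and they lay further below their own bins, by 0.77 and 0.70, than below WT. Dnajc6, Dnajc16, Dnajc3 and Dnajc27, at 4698 to 5969 nt, are long, and lay 0.36 to 0.49 below the medians of their bins. The part of length in these falls was not tested either.

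**Figure D3:**
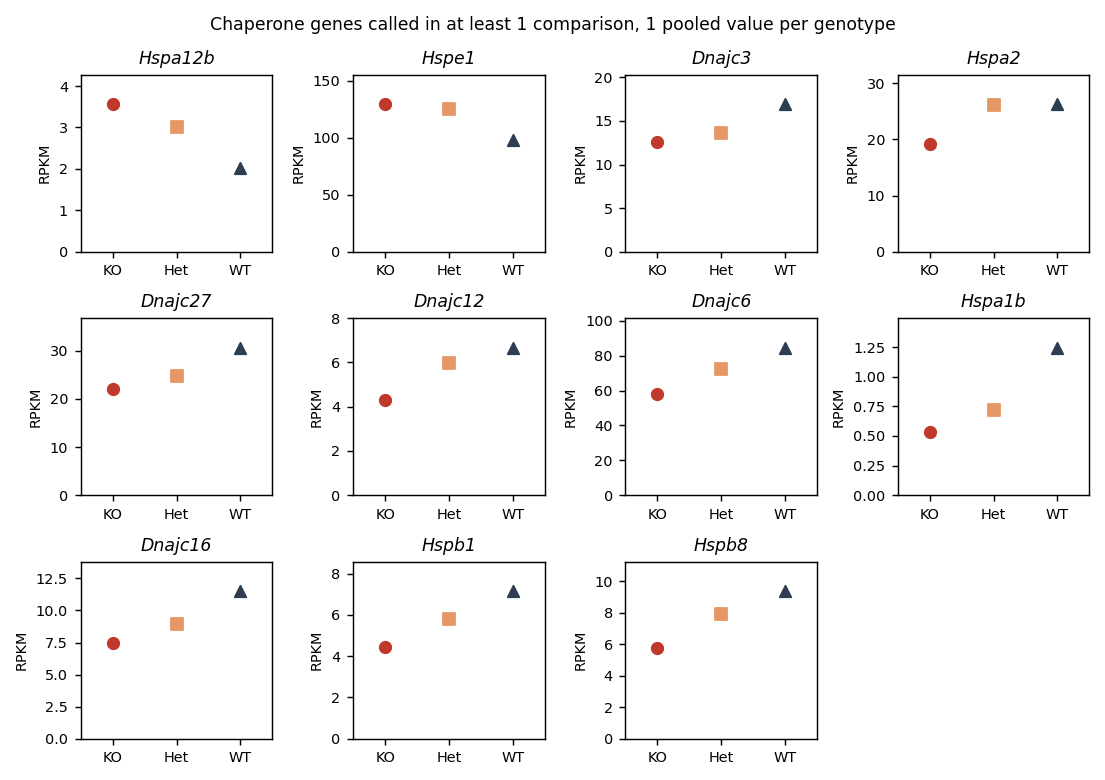
Level in RPKM, from 0, of the 11 members that changed in at least 1 comparison, 1 pooled value per genotype, ordered by log2 fold in KO. Hspa12b and Hspe1 are lowest in WT, and the other 9 genes are highest in WT with KO lowest.

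The 8 members placed in mitochondria, which include import and matrix chaperones, had a median log2 fold of 0.18 in KO and 0.11 in Het, with 6 above 0 in KO and 7 in Het. Apart from Hspe1 none of them passed the authors' test or had an unadjusted p below 0.05 in any table. Their summed level was 518 RPKM in KO, 503 RPKM in Het and 455 RPKM in WT.

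The 7 subunits of the cytosolic CCT ring that carry a Cct name lay slightly above WT in sum in both mutants, though none of the 7 passed the authors' test. All 7 subunits had a log2 fold above 0 in Het, with a median of 0.16, and 6 of 7 did in KO, with a median of 0.19. Their summed level was 843 RPKM in KO, 845 RPKM in Het and 758 RPKM in WT. Cct5, the most abundant subunit, had 180.1 RPKM in KO, 167 RPKM in Het and 150.2 RPKM in WT (adjusted p 0.139 in KO and 0.489 in Het in the authors' deposited tables). Cct6a had 133 RPKM in KO, 145 RPKM in Het and 132 RPKM in WT, with an adjusted p of 0.973 in KO and 0.608 in Het. In each mutant 1 subunit was higher at an unadjusted p below 0.05 and 0 were lower. With subunits that work in a fixed ring, these are not independent observations.

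The ring's subunit 1 carries another name, Tcp1, and was examined with the factors that feed the ring. Tcp1 had 101 RPKM in KO, 91.5 RPKM in Het and 78.6 RPKM in WT, and rose in KO (adjusted p 0.0398 in the authors' deposited table). Among the 13 measured genes of CCT, prefoldin and tubulin folding, 4 rose and 0 fell in KO by the authors' test, while 0 passed it in Het. The 4 are 30.8% of the list, beside 6.85% of all genes, and no test of the list was made. Transcript length, with which the folds of all genes moved as given above, was not taken into account for this or the other lists. Its part in these counts was not tested. At an unadjusted p below 0.05, 5 were higher and 0 lower in KO, and 1 was higher and 0 lower in Het. Pfdn5, a prefoldin subunit that hands actin and tubulin to the ring, had 289.7 RPKM in KO, 228 RPKM in Het and 202 RPKM in WT (adjusted p 0.000987). The other two act on tubulin itself. Tbca, which holds folded beta-tubulin, had 199 RPKM in KO, 171 RPKM in Het and 145 RPKM in WT (adjusted p 0.00780). Tbcb, its counterpart for alpha-tubulin, had 84.8 RPKM in KO, 74.3 RPKM in Het and 65.1 RPKM in WT (adjusted p 0.0214). In all 4 genes KO was highest and WT lowest, and the adjusted p values are those of KO against WT in the authors' deposited table.

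**Figure D4:**
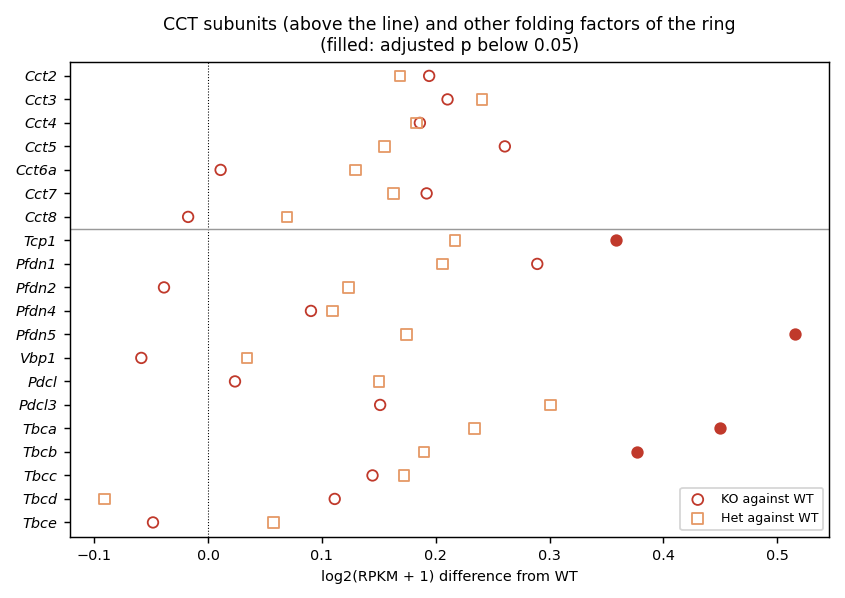
Difference of log2(RPKM + 1) from WT for the 7 CCT subunits (above the line) and for Tcp1, prefoldins and tubulin folding factors (below it), in KO (circles) and Het (squares). Filled points passed the authors' test. The 4 filled circles are Tcp1, Pfdn5, Tbca and Tbcb in KO.

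Among the 5 small heat shock proteins, 2 fell in KO, which is 40% of them, beside 7.67% of all genes. In Het, 0 of the 5 had an adjusted p below 0.05 or an unadjusted p below 0.05. Hspb8, which works with Bag3 to send aggregated proteins to autophagy, had 5.75 RPKM in KO, 7.95 RPKM in Het and 9.38 RPKM in WT. It fell in KO by 1.63-fold (adjusted p 0.000987 in the authors' deposited table), and had an adjusted p of 0.502 in Het. Hspb1, the classic inducible small heat shock protein that protects actin filaments, had 4.44 RPKM in KO, 5.81 RPKM in Het and 7.15 RPKM in WT. In KO it fell by 1.61-fold (adjusted p 0.0321 in the authors' deposited table), and had an adjusted p of 0.608 in Het. Both were lowest in KO and highest in WT, the order also seen for the summed choroid plexus markers given above. The summed cortical excitatory neuron markers had that order through Slc17a7, and the sum of the other 6 did not. The summed ependymal markers were nearly level between KO and Het, at 19.1 and 19.2 RPKM, and higher in WT, at 26.7 RPKM. The part of those markers in the result was not tested. Hspb11, which despite its name encodes an intraflagellar transport protein, was the most abundant at 15.7 RPKM in KO, 18.5 RPKM in Het and 14.4 RPKM in WT, with an adjusted p of 0.781 in KO. The other two, Hspb3 and Hspb6, did not pass the test.

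Heat shock elements in the Hspb1 and Hspb8 promoters are shown in capitals, in stretches of GRCm38.p6 at chr5:135887786-135887845 on the plus strand and chr5:116422829-116422888 on the minus strand.
Hspb1: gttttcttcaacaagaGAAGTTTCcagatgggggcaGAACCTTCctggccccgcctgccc
Hspb8: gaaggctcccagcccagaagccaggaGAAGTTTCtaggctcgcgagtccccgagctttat

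Over the family, 18 of 59 members with a promoter window (30.5%) held a heat shock element in at least 1 of their windows, beside 13.8% of 10725 genes of at least 1 RPKM and 15.1% of all 32851 windows. In KO, 1 of the 18 rose and 4 fell, and of the 41 without the element 1 rose and 4 fell. The groups differ in size, so equal counts are a larger share of the 18. Among all genes 6.85% rose and 7.67% fell, and no test of the groups was made. Members with no matched window are in neither group. Among them are Hspa8, Hspa9, Hsp90aa1 and Hsp90ab1, and also Dnajc12, which fell in KO. The median log2 fold in KO was -0.02 with the element and -0.01 without it. Hsph1, with 3 elements, and Dnajb6, with 2, did not pass the test. The element was thus held by members that rose, that fell and that did not pass the test. Dnajb1, an inducible partner of HSP70, held 0 elements in its window, where only exact matches were counted. It had 25.4 RPKM in KO, 22.7 RPKM in Het and 22.9 RPKM in WT (adjusted p 0.513 in KO in the authors' deposited table).

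Heat shock factor 1 itself, Hsf1, had 11.3 RPKM in KO, 12.8 RPKM in Het and 13.1 RPKM in WT, an adjusted p of 0.369 in KO. None of the 9 measured heat shock factors and other inducible genes passed the authors' test in KO, where 0 had an unadjusted p below 0.05. In Het 2 of the 9 rose, which is 22.2%, beside 4.0% of all genes. Cryab, a small heat shock protein of lens, muscle and glia, had 23.6 RPKM in KO, 31.4 RPKM in Het and 23.0 RPKM in WT (adjusted p 0.0431 in Het in the authors' deposited table). Serpinh1, the collagen chaperone of the ER, had 21.2 RPKM in KO, 24.5 RPKM in Het and 18.3 RPKM in WT (adjusted p 0.0171 in Het). For both, Het was the highest genotype.

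Of 15 exchange factors and co-chaperones of HSP70, 1 rose and 2 fell in KO. These are 6.67% and 13.3% of the list, beside 6.85% and 7.67% of all genes. Of the 15, 0 passed the authors' test in Het, where 1 was higher and 0 lower at an unadjusted p below 0.05. Bag1, a nucleotide exchange factor, had 115 RPKM in KO, 101 RPKM in Het and 83.9 RPKM in WT, and rose in KO (adjusted p 0.000987 in the authors' deposited table). Sgtb, a co-chaperone enriched in neurons, had 23.8 RPKM in KO, 29.2 RPKM in Het and 31.2 RPKM in WT, and fell in KO (adjusted p 0.0221). Bag4, another exchange factor, had 13.6 RPKM in KO, 15.5 RPKM in Het and 17.2 RPKM in WT, and fell in KO (adjusted p 0.0452). In each of these genes Het lay between KO and WT.

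Of 13 genes listed as HSP90 co-chaperones, 3 rose (23.1%, beside 6.85% of all genes) and 1 fell (7.69%, beside 7.67%) in KO. The list includes Trap1, itself an HSP90 of mitochondria that the naming rule left out of the HSP90 class. Trap1 did not pass the test in any table. In Het 1 rose and 1 fell, each 7.69% of the list, beside 4.0% and 5.1% of all genes. Fkbp4, an immunophilin that moves the glucocorticoid receptor toward the nucleus, had 75.3 RPKM in KO, 73.1 RPKM in Het and 57.2 RPKM in WT. It rose in KO (adjusted p 0.0130) and in Het (adjusted p 0.0159) in the authors' deposited tables. Fkbp5, its relative that lowers the receptor's affinity and is itself induced by glucocorticoids, had 15.3 RPKM in KO, 14.2 RPKM in Het and 23.0 RPKM in WT. It fell in KO (adjusted p 0.000987) and in Het (adjusted p 0.00135). The pair thus moved in opposite directions in each mutant. Fkbp5 is also 1 of the 7 glucocorticoid-responsive genes given above. Pih1d1, a subunit of an HSP90-linked assembly complex, had 32.1 RPKM in KO, 26.2 RPKM in Het and 22.0 RPKM in WT (adjusted p 0.0103 in KO). Cdc37, which loads kinases onto HSP90, had 58.7 RPKM in KO, 49.8 RPKM in Het and 46.3 RPKM in WT (adjusted p 0.0403 in KO in the authors' deposited table).

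The most abundant J proteins of the DNAJA and DNAJB classes lay close to WT. Dnajb6, which suppresses aggregation of polyglutamine proteins, had 146 RPKM in KO, 143 RPKM in Het and 143 RPKM in WT. Dnajb5 had 68.0 RPKM in KO, 72.8 RPKM in Het and 63.4 RPKM in WT. Dnaja1 and Dnaja2, the general cytosolic partners of Hspa8, had 87.0 and 78.0 RPKM in KO, 91.0 and 81.6 RPKM in Het and 81.2 and 78.7 RPKM in WT. None of these 4 passed the test in any table.

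Sites for miR-137 were sought in the members by sequence. A microRNA lowers messages whose 3' UTR pairs with its seed, bases 2 to 8. Mature miR-137-3p is given from RefSeq (GRCm38.p6, chr3:118433901-118433923 on the plus strand) with the seed in capitals, because the search used its complement, AGCAATA. Beside it stand the 1 site of 8 letters found in a member and the site of the most abundant J-protein gene with one, read from GENCODE M21 3' UTRs with the match in capitals.
miR-137-3p: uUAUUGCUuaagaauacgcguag
Dnajc15: ttaagtgtgcAGCAATAAaagcctggc
Dnajb6: ggttttgcttAGCAATAccatttctag

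A site stood in 8 of 70 members with an annotated 3' UTR (11.4%), beside 10.7% of 12963 genes of at least 1 RPKM. They are Dnajb1, Dnajb5, Dnajb6, Dnajc1, Dnajc5, Dnajc15, Hspa9 and Hspa12a. In the sense strand of the 3' UTR, Dnajc15 had 3 sites and the others 1 each. None of the 8 passed the authors' test in any table, and the 11 members that changed held no site. Among all 1383 genes with a site, 7.59% rose and 8.17% fell in KO, so a count of 0 of 8 says little about these members. The median log2 fold of the 8 was 0.07 in KO and -0.01 in Het, against -0.0036 in KO and 0.04 in Het for the 62 members with a 3' UTR and no site. Dnajc15, a protein of the mitochondrial import motor, had 50.9 RPKM in KO, 46.9 RPKM in Het and 42.3 RPKM in WT (adjusted p 0.245 in KO in the authors' deposited table). Its order of levels was KO highest and WT lowest, but the differences did not pass the test.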

How the data were processed

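Per the labels' protocols, libraries of dissected cortex were made with the TruSeq RNA kit v2 and read as paired ends of 50 cycles, from samples described as duplicated. Per the submitters' processing notes, the build was mm9 and the tools were TopHat2 2.0.13, Cuffdiff 2.2.1 and CASAVA 1.4. Their order and the annotation: not given in the sources used here. The authors deposited 3 pairwise tables with, per the file headers, 1 pooled RPKM for each genotype. They also hold the authors' p-value and q-value per gene from their own test, and genes with a p of 1 were taken as untested. No test was run here and calls are the deposited q below 0.05, adjusted over all genes of a table. The deposited log2 fold column was not used, and 0 value columns were unmapped. Folds were computed as log2(RPKM + 1) differences. Depth per library is unknown. Strand was not stated to be used in counting.

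Named were members that changed, the 2 most abundant of each class, inducible and constitutive members, members near the minimum of 1 RPKM, and up to 4 changed genes of each other list. Hsf1, Cct6a, Dnajc15, Trap1, Slc17a7, the single vessel wall markers and the members named for holding a motif were added after their values were seen. The members and lists were chosen with earlier results of these data known. RefSeq promoters (GRCm38.p6) matched 59 members by symbol, and GENCODE M21 (GRCm38) gave 3' UTRs and lengths for 70. These builds differ from that of the tables, so only names joined them. The steps were tested on simulated data. Work used Python 3.11.15, numpy 2.4.6, pandas 2.3.3 and matplotlib 3.10.9.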

Additional observations from a re-analysis of the deposited data

Results flagged for a closer look

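Hspa2 was the 1 member whose level differed between the mutants themselves. In the authors' deposited table for these mutants it was 19.3 RPKM in KO and 26.3 RPKM in Het, with an adjusted p of 0.0412. Against WT the same gene had an adjusted p of 0.00386 in KO and 0.983 in Het.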

How the results depend on the processing

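No paired analysis was possible because each table holds 1 pooled value per genotype, and leaving out single libraries was not possible for the same reason. Of the members that rose in KO against WT, 2 by the authors' adjusted p below 0.05, 1 was left at an adjusted p below 0.01, 1 with a minimum of 5 RPKM and 1 with an absolute log2 fold of at least 0.5 required. The 1 member that rose in Het against WT became 0 below 0.01 and 0 with the minimum fold. The 1 member that fell in KO against Het likewise became 0 under each of these settings. The 9 that fell in KO ranged between 6 and 9 under the settings tried. Adjusting over the 3 comparisons together, or setting no minimum level, changed no count. Median log2 folds of the members moved by less than 0.05 with pseudocounts of 0.1 and 0.01, the other minimum levels, recentring, and a correction for transcript length that was chosen after seeing the data. With that correction the median in KO against WT was -0.04, against 0.01 without it. With 4 libraries per genotype, pooled and of unknown depth, what can be read for members near 1 RPKM is limited.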
